A study of Apis mellifera with 12 samples.

Results

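The cells described here are neurons of the honeybee (Apis mellifera) brain that carry the transcript of Hiscl1, the histamine-gated chloride channel 1. They were chosen by that readout. A cell was a member when it had at least 3 UMIs of Hiscl1, a Hiscl1 level of at least 5 per 10000 UMIs, and fewer than 3 UMIs each of the LIM homeobox gene Lim3 and of the glial homeobox gene repo. A UMI, or unique molecular identifier, stands for 1 captured transcript. The rule found 5861 members among 121460 kept cells (4.83%), and they are called Hiscl1 neurons below. Kept cells had 200 to 5000 detected genes, at least 500 UMIs and less than 15% mitochondrial UMIs.

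Whole brains were taken from foragers and nurses, which were workers of 1 colony that collected food or tended brood, and from mated queens that had been artificially reared and inseminated. Each of these 3 groups had 2 single-cell libraries and 2 bulk RNA libraries, and every library was a pool of brains. No group carried a drug or a genetic change. A p-value below measures the spread between such pools, and a pool does not show how single bees vary.

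Histamine is the transmitter of insect photoreceptors, and the channels it opens let chloride into the receiving cell and lower its activity. In Drosophila such channels sit on the lamina and medulla neurons that receive photoreceptor input, and on photoreceptor terminals. The study used Hiscl1 as a marker for a type of optic lobe neuron. The bee gene lies on linkage group LG2 at 6409564 to 6416225 of Amel_HAv3.1, the assembly the files were made with.

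By elav the members fitted the neuronal side of the label. The pan-neuronal gene elav was at 2808 to 3630.2 CPM (UMIs scaled to a total of 1000000) in the summed members of the 6 libraries, and at 3373 to 4089.6 CPM in the summed other neurons, which were the kept cells with fewer than 3 UMIs of Hiscl1 and of repo. The olfactory projection neuron genes otp, acj6 and oaz had means of 2.20, 1.995 and 0.975 CPM in the members. The 4 genes of that list summed to 4.11 to 7.23 CPM in the members and to only 13.3 to 19.97 CPM in other neurons. The 7 photoreceptor genes summed to 56.3 to 103 CPM in the members and to 82.5 to 115 CPM in other neurons. Within that list ninaC and trp had means of 1.79 and 2.46 CPM in the members, and trp, though low, was higher there than in other neurons. The 5 Kenyon cell markers (Kenyon cells are the intrinsic neurons of the mushroom bodies) summed to 3573 to 5834 CPM in the members and to 10447 to 13566 CPM in other neurons. The 10 glia markers summed to 226 to 694 CPM in the members and to 323 to 827 CPM in other neurons. Both classes were limited to fewer than 3 UMIs of repo, which is among these markers, so low glial levels were set in part by the rule. Cells with more repo were not part of these comparisons.

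The level of Hiscl1 itself set membership and is given as a description. The members held a median of 7 UMIs of Hiscl1 and a highest count of 105. At the lower edge, 806 members had exactly 3 UMIs, 1123 cells that met the other limits had 2, and 1294 cells with at least 3 UMIs fell below the rate of 5 per 10000. At the upper end, 854 members had more than 20 UMIs. Summed over a library, Hiscl1 was at 1303 and 1140.3 CPM in forager members, 1207 and 1103 CPM in nurse members, and 1256 and 1382 CPM in queen members. Other neurons held 22.3 to 40.5 CPM.

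Free RNA and depth set a background under this rule. Among the 4978 cells with at least 3 UMIs of repo, 1.01% to 3.096% per library also met the Hiscl1 limits, and 13.1% to 24.9% had at least 1 UMI of Hiscl1. At least 1 UMI was seen in 14.9% to 22.03% of other neurons. The median depth per library was 4521 to 6392 UMIs in the repo cells, 4590 to 5796 in other neurons and 6141 to 9717 in the members. A doublet caller marked 211 members (3.60%), and 7 barcodes occurred among the members of more than 1 library.

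Hiscl1 neurons were found at similar shares in the 3 groups. Foragers had 5.60% and 3.71% of their kept cells in this class, nurses had 5.03% and 5.88%, and queens had 3.97% and 4.84%. The groups overlapped, and the spread within foragers was as wide as that across groups. Exact (Clopper-Pearson) 95% intervals, which cover counting error only, reached from 3.47% for the lowest library to 6.21% for the highest. The queen mean of 4.41% lay 0.65 percentage points below the worker mean of 5.06% (two-sided exact permutation test over libraries, p = 0.533), and the forager mean of 4.66% lay 0.80 points below the nurse mean of 5.45% (p = 0.667, same exact permutation test). Tests of 2 against 4 libraries cannot give an exact p under 0.0667, and those of 2 against 2 none under 0.333. Cells with at least 3000 UMIs were also thinned to 3000 and the rule was applied again. This left out 21168 shallower cells, 189 of them members. Of the cells that remained, foragers had 4.79% and 2.78%, nurses 3.68% and 4.27%, and queens 2.94% and 4.01%. Without forager replicate 2 the forager mean was 0.14 points above the nurse mean.

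**Figure D1:**
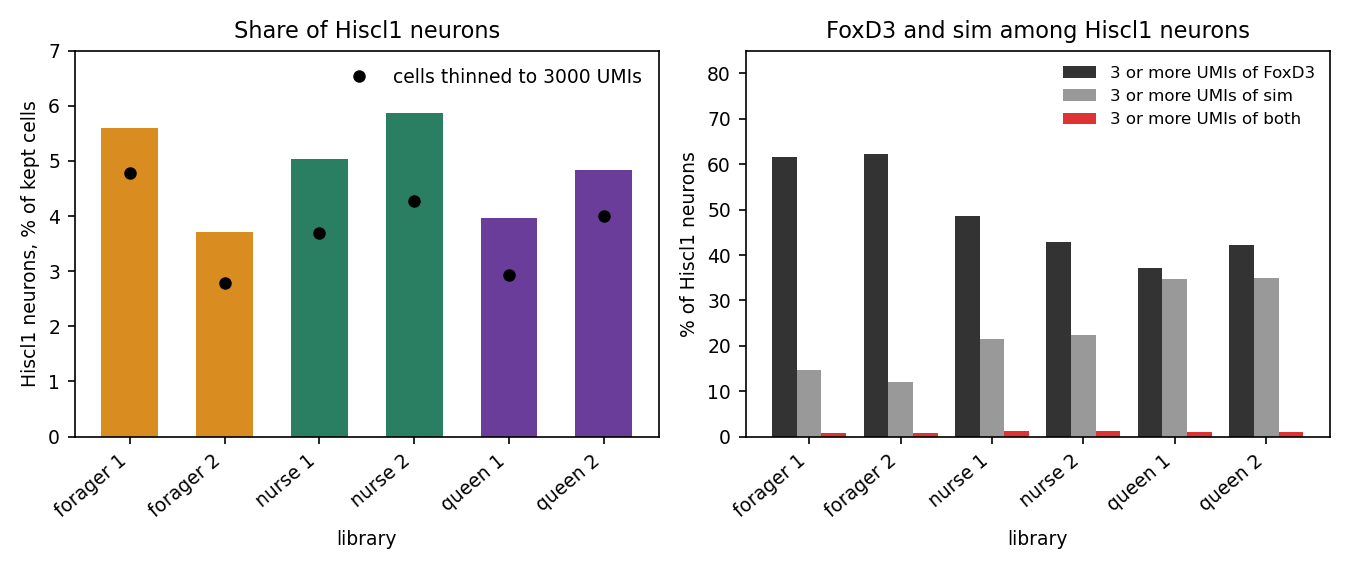
Left, bars give Hiscl1 neurons as a percentage of kept cells in each of the 6 libraries. Points give the percentage among cells with at least 3000 UMIs after thinning to 3000 UMIs per cell. The groups overlap. Right, bars give the percentage of Hiscl1 neurons with at least 3 UMIs of FoxD3, of sim and of both genes; both queen libraries had more sim cells (34.8% and 34.9%) than any worker library (11.98% to 22.3%).

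In bulk RNA of whole brains, fewer cells of a type and less RNA per cell cannot be told apart. Hiscl1 was there at 38.9 and 39.7 CPM in forager brains, 34.6 and 55.8 CPM in nurse brains, and 33.0 and 20.9 CPM in queen brains. Both queen libraries lay below all worker libraries. The queen level differed from the worker level by -0.63 ± 0.24 on the log2 scale (SE, edgeR, adjusted p = 0.0866), which did not pass, in a comparison that called 9.71% of 9932 genes. Foragers differed from nurses by -0.21 ± 0.27 (adjusted p = 0.768), where 0.0101% of genes were called. The bulk libraries held 324 to 733 expected counts of Hiscl1.

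Hiscl1 neurons carried a set of transcription factor genes at levels many times those of other neurons, with more kainate-type glutamate receptor and GABA-B receptor transcript and less dopamine receptor and neuropeptide transcript. UMIs were summed per library and class and compared with edgeR, with the library as a block. Of 10591 genes tested, 1906 differed (adjusted p under 0.01 and a log2 fold over 0.5), which is 18.0% of genes, with 565 higher (5.33%) and 1341 lower (12.7%) in Hiscl1 neurons. The median log2 fold over all genes was -0.01. A list of 28 transcription factor genes of optic lobe clusters was put together here, and the study named several of them as cluster markers. Of these 27 were tested, 13 were higher and 10 lower, and the list's median was 0.64. That list was picked from these same libraries and is not independent evidence.

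Maf, a bZIP transcription factor gene on LG6 (16410236 to 16418506), showed the largest rise of the named genes. It was at 234 and 142 CPM in forager members, 188 and 170.4 CPM in nurse members, and 196 and 239 CPM in queen members, against 8.39 to 11.4 CPM in other neurons. All 6 libraries were well above that range, and the log2 fold was 4.31 ± 0.08 (SE, n = 6 libraries, edgeR adjusted p = 2.7e-09).

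FoxD3, a forkhead factor gene known from neural crest and stem cells of vertebrates, lies on LG9 (6043644 to 6046657). It was at 1247 and 1400.1 CPM in forager members, 765 and 548 CPM in nurse members, and 479 and 694 CPM in queen members, against 63.1 to 102 CPM in other neurons. Forager members were the highest and did not overlap the others, and every library lay above the other neurons (log2 fold 3.39 ± 0.17, edgeR adjusted p = 1.9e-07). Nkx-2.4, a homeobox gene on LG5 (9759539 to 9789529), was at 515 to 782 CPM in the members against 135 to 187 CPM (log2 fold 2.05 ± 0.10). sim, the bHLH-PAS factor gene single-minded that specifies midline cells in Drosophila, is on LG1 (21742392 to 21770733). It was at 118 to 282 CPM in the members against 23.9 to 52.4 CPM (log2 fold 2.42 ± 0.23). The zinc finger gene GATAc on LG8 (7989376 to 8073457) was at 144 to 431 CPM against 40.4 to 80.5 CPM (log2 fold 2.42 ± 0.27). GATAc and sim had the largest standard errors of these factors, with queen members highest.

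Among the remaining factors of the list that rose were the eye-development gene Pax-6 (log2 fold 2.51), the LIM homeobox gene Awh (3.004), the orthodenticle gene otd2 (1.63), the zinc finger gene Bcl11 (1.54), ERG (1.39), Sox-2 (0.82), bsh (0.77) and svp (0.68). The factors that fell were Lim1 (-3.18), Hmx (-2.25), hth (-2.07), prospero (-1.71), ISL-1 (-1.69), Sox-19b (-1.68), Lhx9 a (-1.30), cut (-1.15), vsx1 (-1.04) and omb (-0.92). Lim3 was set by the rule and is not among them.

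Glutamate receptor genes were mixed, with the largest rises in kainate receptor subunits. Kainate receptor c, an ionotropic glutamate receptor subunit gene on LG4 (4506733 to 4625264), was at 418 and 345 CPM in forager members, 356 and 262 CPM in nurse members, and 99.8 and 99.4 CPM in queen members. Queen members were far below worker members and still above the 13.7 to 43.7 CPM of other neurons (log2 fold 3.06 ± 0.13, edgeR adjusted p = 8.1e-08). Kainate receptor b was at 171 to 292 CPM against 37.6 to 101 CPM (log2 fold 1.91 ± 0.10). GABA-B receptor subunit 2, part of the metabotropic GABA receptor, was at 416 to 927 CPM against 110.4 to 199.6 CPM (log2 fold 2.28 ± 0.16). In the list of glutamate and GABA-B receptors 4 of 9 genes rose, the other being Glurb (metabotropic glutamate receptor B, 0.58), metabotropic glutamate receptor 7 fell (-1.75) and 4 were not called. The list's median was 0.45.

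The other ligand-gated chloride channels, which are the relatives of Hiscl1 that answer to GABA, glutamate or pH, were split, with 2 of 5 higher and 2 lower (median -0.07). Grd, a GABA-gated channel subunit gene, was at 46.4 to 103 CPM in the members and at 13.8 to 22.8 CPM in other neurons (log2 fold 1.96 ± 0.09), and LCCH3 rose by 0.79 ± 0.06 on the log2 scale. The GABA receptor subunit beta was at 202 to 300.3 CPM against 597 to 737 CPM (log2 fold -1.50 ± 0.08), and pHCl was lower too (-1.15). GluCl, the glutamate-gated chloride channel gene, had means of 1664 CPM in the members and 1772 CPM in other neurons (log2 fold -0.07 ± 0.04, not called). Outside the list, the cys-loop channel subunit gene Amel_8916 was at 44.9 to 84.1 CPM in the members against 2.89 to 8.61 CPM (log2 fold 3.58 ± 0.15), the third largest named rise.

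Receptors for acetylcholine and amines were lower more often than higher. Of 13 acetylcholine receptor genes 1 rose, the subunit alpha-10 (log2 fold 1.01), and 6 fell, nAChRa6 (-1.49) and the muscarinic receptor DM1 (-1.48) the furthest, with a median of -0.41. Of 13 amine receptor genes 2 rose and 7 fell, with a median of -0.51. The dopamine receptor gene DopR2 was at 39.7 to 76.2 CPM in the members and at 202 to 242 CPM in other neurons (log2 fold -2.14 ± 0.09), and Dop1 (-1.94), Dop3 (-1.44) and the tyramine receptor gene TyrR (-1.68) were lower as well. The octopamine receptor genes rose, Oa1 with 75.7 to 183 CPM against 30.9 to 39.8 CPM (log2 fold 1.78 ± 0.19) and beta-2R with a log2 fold of 0.73.

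Transcripts of more than 1 transmitter system were found in the members. VGlut, which loads glutamate into vesicles, was at 95.3 to 139.9 CPM against 44.4 to 69.4 CPM in other neurons (log2 fold 1.08 ± 0.04, edgeR adjusted p = 8.1e-08). Gad1, which makes GABA, was at 34.5 to 80.8 CPM against 140.1 to 234 CPM (log2 fold -1.81 ± 0.11). VAChT and choline transporter a, which serve acetylcholine release, were not called (0.05 ± 0.10 and 0.18 ± 0.11). Over the list of 12 transmitter genes 2 rose and 6 fell, with a median of -0.72. TDH, the study's marker of neurons that make histamine, had means of 3.1002 CPM in the members and 6.66 CPM in other neurons (log2 fold -1.02). Eaat-1, a glutamate uptake gene that the study used to mark T1 neurons of the optic lobe, was at 124 to 302 CPM against 50.1 to 72.6 CPM (log2 fold 1.67 ± 0.09).

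Most neuropeptide genes were lower in the members. Of 25 tested 14 fell, among them the tachykinin gene Tk (log2 fold -2.27) and orcokinin (-1.92), and 3 rose, with a list median of -1.06. FMRFamide was the clearest of the rises, at 161 and 179 CPM in forager members, 157.99 and 86.1 CPM in nurse members, and 60.7 and 47.1 CPM in queen members, against 8.41 to 12.4 CPM in other neurons (log2 fold 3.34 ± 0.25). The short neuropeptide F gene sNPF (1.64) and akh (0.56) rose too. Of 8 peptide receptor genes the allatostatin A receptor (1.29), the allatostatin C receptor (1.22) and SIFR, the SIFamide receptor (0.76), rose, and the corazonin receptor Crzr (-1.58) and the diuretic hormone receptor (-0.92) fell.

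The named rises outside the lists, beside Amel_8916, were LOC100578955 (myosin-7, log2 fold 3.70), LOC413215 (lachesin, 2.82), LOC409722 (basement membrane proteoglycan, 2.73), LOC410585 (DE-cadherin, 2.73), LOC726414 (windpipe, 2.67) and LOC413185 (spondin-1, 2.02). The named falls outside the lists were LOC409970 (a thrombospondin domain protein, -2.398), LOC726262 (adenylate cyclase type 8-like, -2.28), LOC410947 (tyrosine decarboxylase, -2.14), LOC100578296 (a G-protein coupled receptor, -2.11), LOC725318 (a transmembrane protein, -2.09) and LOC107965041 (an organic anion transporter, -2.08).

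Other cells moved with this comparison. PLCe, a Kenyon cell gene, was at 759.9 to 1719.5 CPM in the members and at 4092 to 5955 CPM in other neurons, and 3 of 5 Kenyon cell markers fell. When cells with at least 3 UMIs of PLCe were left out of the other neurons, 1428 genes were called, 326 higher instead of 565 and 1102 lower instead of 1341. That filter kept only 1121 to 3744 other neurons per library, of 16012 to 19862, so it removed most of that class. Of the named and listed genes 18 lost their call, and LOC409970, LOC726262, LOC100578296, LOC107965041, mblk-1, Glurb and bsh changed sign, bsh to -0.08. PLCe changed sign too, which the filter fixed in advance, since the members were not filtered on it. Of the remaining marker lists 3 of 3 projection neuron genes, 2 of 9 glia genes, 1 of 4 hemocyte genes and 6 of 13 genes of RNA from other sources were lower, and of 7 photoreceptor genes trp was higher (1.27). With cells of at least 3000 UMIs thinned to that depth 1424 genes were called, and without the library block 1022.

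**Figure D2:**
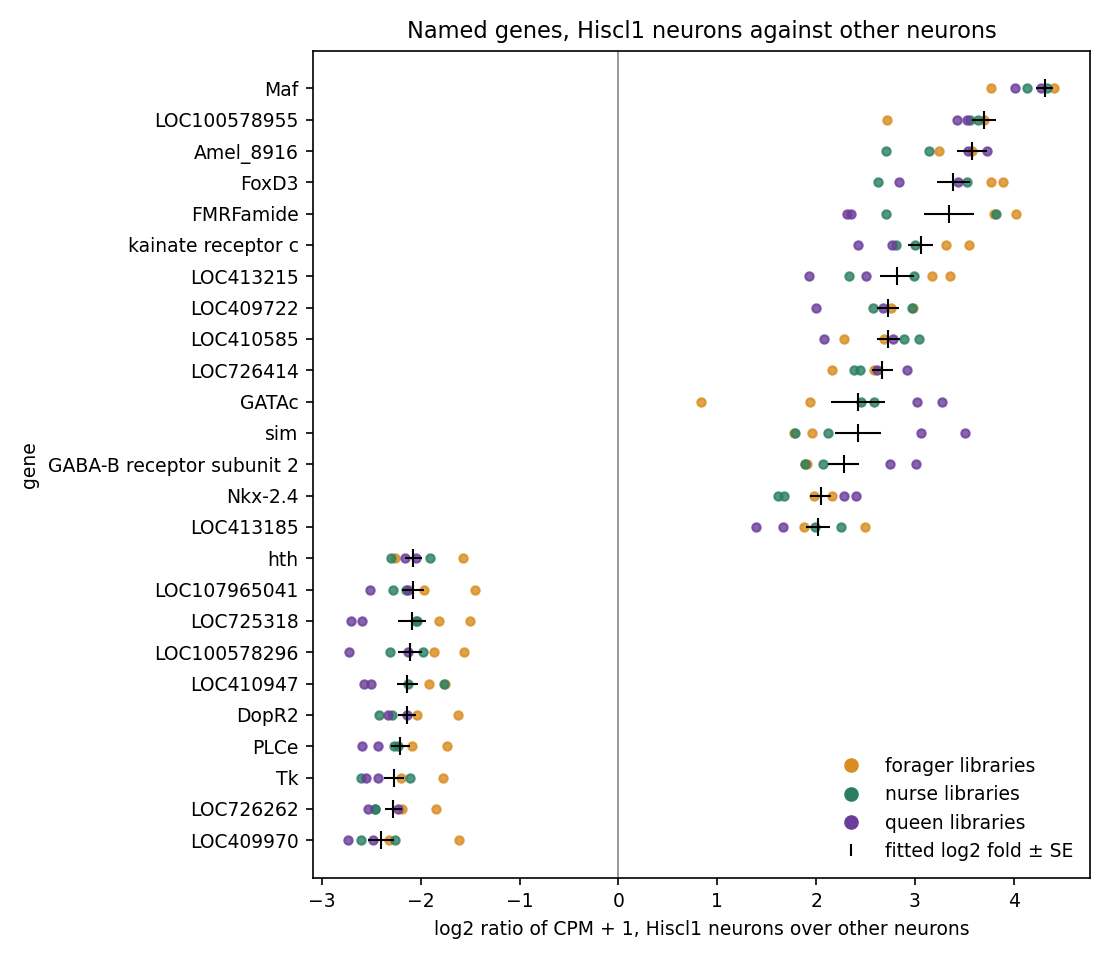
Each point is the log2 ratio of CPM + 1 in Hiscl1 neurons over other neurons in 1 library, for the 15 named rises and 10 named falls; ticks and lines give the edgeR log2 fold and its SE. The naming rule required the 6 libraries to lie on the same side of 0. Maf has the highest fold, 4.31.

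Set against 2 kinds of cell chosen by optic lobe marker genes, Hiscl1 neurons again had more Maf, FoxD3 and kainate receptors b and c. Lim3 neurons (308 cells, 25 to 79 per library) had at least 3 UMIs of Lim3 at 5 or more per 10000, and fewer than 3 of Hiscl1 and repo. Between these classes 556 of 8143 genes differed (6.83%), 238 higher (2.92%) and 318 lower (3.91%) in Hiscl1 neurons. The rises included Maf (log2 fold 4.89), FoxD3 (4.76 ± 0.17, means of 855 and 29.5 CPM), ERG (4.48), FMRFamide (4.37), sim (4.14), GATAc (3.72) and Nkx-2.4 (3.66). Gad1 had a mean of 51.3 CPM in Hiscl1 neurons and 819.6 CPM in Lim3 neurons (log2 fold -4.01 ± 0.14). The homeobox genes Hmx (-4.89), ISL-1 (-3.71), hth (-2.64) and Lhx9 a (-2.62) were lower as well, and the cholinergic genes choline transporter a (1.75), VAChT (1.57) and ChAT (0.98) were higher. Of 26 tested optic lobe factors 13 rose and 9 fell (median 0.49). Of 9 glutamate and GABA-B receptor genes 3 rose, kainate receptor c (3.62), GABA-B receptor subunit 2 (2.67) and kainate receptor b (0.77), and 3 fell, with a list median of -0.23. Without the library block 304 genes were called.

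The second kind had at least 3 UMIs each of the homeobox genes bsh and hth, and fewer than 3 of Hiscl1, Lim3 and repo (407 cells, 20 to 128 per library). Here 1043 of 8256 genes differed (12.6%), 616 higher (7.46%) and 427 lower (5.17%) in Hiscl1 neurons. Maf (log2 fold 6.01), FoxD3 (5.38), LOC100578955 (5.16), kainate receptor c (5.15), FMRFamide (5.002) and kainate receptor b (3.47) were among the rises. The homeobox gene cut had means of 30.6 CPM in Hiscl1 neurons and 458 CPM in the bsh and hth cells (log2 fold -3.99 ± 0.13), and a tyramine receptor-like gene had means of 12.7 and 138 CPM (-3.45 ± 0.10). Of 9 glutamate and GABA-B receptor genes 7 were higher and none lower. Without the library block 661 genes were called.

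Within the members, FoxD3 and sim marked largely separate cells. At least 3 UMIs were found for FoxD3 alone in 2831 members (48.3%), for sim alone in 1270 (21.7%), for both in 63 (1.07%) and for neither in 1697 (29.0%). FoxD3 was thus seen in 4.73% of the 1333 cells with sim and in 62.5% of the 4528 cells without it. Doublet calls stood at 3.25%, 4.09%, 4.76% and 3.77% of these groups in the same order. In cells with repo and without Hiscl1, 3 UMIs of FoxD3 were seen in 1.98% to 3.04% per library, and 3 UMIs of sim in 1.42% to 2.68%.

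Clustering of the members, with genes that differed between castes left out, gave 16 subclusters of 34 to 1047 cells, numbered by size. Their genes are described without a test, since the clusters were drawn from the same cells, and none is given a cell type name. FoxD3 was at 692.5 to 2316 CPM in subclusters 1, 2, 3, 4, 12 and 13, where sim was at 0.756 to 24.02 CPM. sim was at 317 to 690.0 CPM in subclusters 6, 7, 8, 10 and 11, where FoxD3 was at 20.3 to 61.9 CPM. Nkx-2.4 ran through both kinds at 303 to 823 CPM in 15 subclusters and was at 47.6 CPM in number 16. Hiscl1 was at 804 to 1484 CPM in all 16.

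Maf crossed this division. It was at 211 to 380 CPM in the sim subclusters 6, 7, 8, 10 and 11 and at 368 and 307 CPM in the FoxD3 subclusters 2 and 4. In the FoxD3 subclusters 1, 3, 12 and 13 it was at 7.09 CPM or lower. The high mean of Maf in the members thus came from some subclusters of each kind.

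Among the FoxD3 subclusters, number 1 (1047 cells) had the adhesion gene LOC413215 (lachesin, 541 CPM) and the transcription factor gene bab2 (1760.1 CPM) among its leading genes, and Eaat-1 at 572 CPM. Numbers 2 (722 cells) and 4 (539 cells) shared the POU factor gene CF1A (251 and 253 CPM) and kainate receptor c (871 and 819 CPM). Number 4 differed by the sex-determination gene Dsx, doublesex (128 CPM), and the sulfonylurea receptor gene LOC410944 (259 CPM). Number 3 (640 cells) held most FMRFamide, at 1318 CPM against 12.3 CPM in the other members, with a diuretic hormone gene (709.9 CPM), the globin gene Glob1 (221 CPM), ERG (521 CPM), Awh (161 CPM) and Pax-6 (180.2 CPM). Number 12 (95 cells) had Eaat-1 at 1388 CPM, vsx1 at 622 CPM and SIFR at 2406 CPM, and number 13 (90 cells) had distal-less (Dll) at 438 CPM, omb at 324 CPM and prohormone-2 at 1417 CPM.

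The sim subclusters fell into a cholinergic and a non-cholinergic set. Numbers 6 (397 cells), 7 (373 cells) and 10 (324 cells) had GATAc at 1219.6, 798 and 1132 CPM, choline transporter a at 3876, 4724 and 2648 CPM, and VAChT at 606, 758 and 467 CPM. Number 6 had LOC408547 (annotated as toxin 3FTx-Lei1) at 3061 CPM, number 7 was led by bsh (130.1 CPM) with Oa1 at 506 CPM and sNPF at 156 CPM, and number 10 was led by the serotonin receptor gene 5-HT2alpha (333 CPM against 7.27 CPM in the other members). Numbers 8 (342 cells) and 11 (249 cells) had GATAc at 17.7 and 33.2 CPM and VAChT at 35.9 and 79.8 CPM. They shared LOC727170, LOC725218 and LOC100578955 among their leading genes, and had svp at 91.4 and 90.002 CPM, the serotonin receptor gene 5-HT1 at 566 and 421 CPM and GABA-B receptor subunit 2 at 1320.1 and 2131 CPM. Median depth was 19838 UMIs per cell in number 8 and 5524 in number 11.

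Subclusters 5 (508 cells) and 14 (82 cells) had little FoxD3 (84.0 and 19.9 CPM) and little sim (40.2 and 5.68 CPM), and were cholinergic by choline transporter a (1964 and 2479 CPM) and VAChT (415 and 506 CPM). Number 5 was led by LOC408579, a thrombospondin domain protein gene (565 CPM), and the lachesin gene LOC408715 (1496 CPM), and number 14 had Sox-19b at 266 CPM. VGlut ran opposite to the cholinergic genes, at 123 to 244 CPM in subclusters 1, 2, 3, 4, 8, 11, 12 and 13 and at 20.3 to 40.95 CPM in numbers 5, 6, 7, 10 and 14.

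The last group of subclusters was led by genes of other classes. Number 9 (337 cells) had the Kenyon cell genes PLCe and mblk-1 at 6939 and 6265 CPM and Tk at 371 CPM, and 96 of its cells were marked as doublets. Number 15 (82 cells) had the opsin gene Lop1 at 311 CPM, arrestin at 361 CPM, the collagen gene vkg at 208 CPM and papilin at 264 CPM, and a median of 3556.5 UMIs. Number 16 (34 cells) had the GABA transporter gene Gat-a at 435 CPM and Gad1 at 333 CPM. The part of doublets and of free RNA in these cells was not tested.

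**Figure D3:**
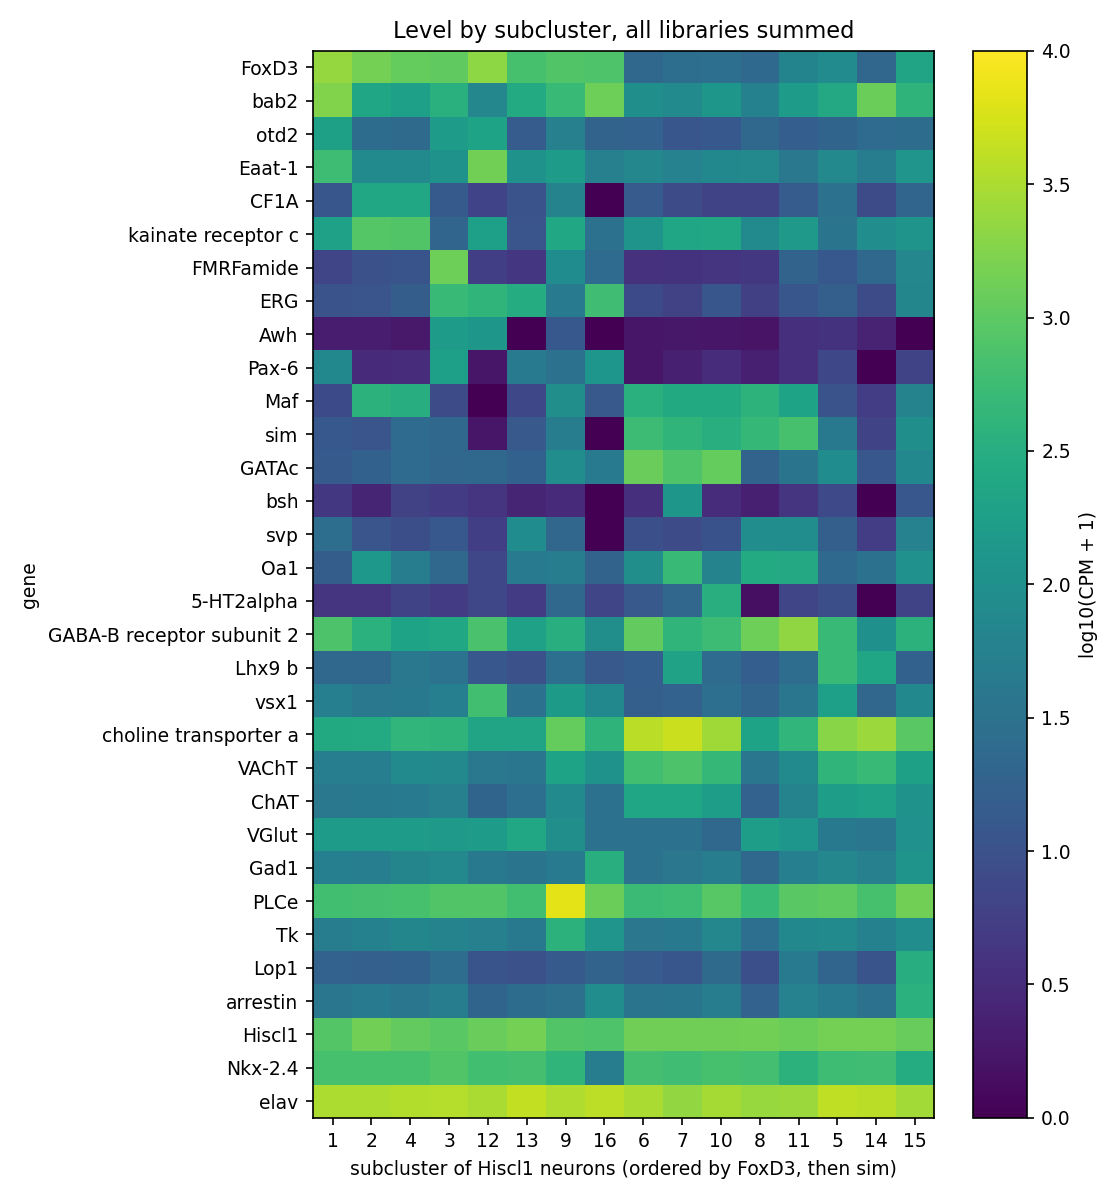
Colour gives log10(CPM + 1) of each gene (rows) in the summed cells of each of the 16 subclusters (columns) over all libraries. FoxD3 is high in subclusters 1 to 4, 12 and 13 and sim in 6, 7, 8, 10 and 11, GATAc shares columns 6, 7 and 10 with the cholinergic genes, and Hiscl1 spans 804 to 1484 CPM.

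The make-up of the Hiscl1 neurons differed between the queen and worker libraries, though no subcluster had an adjusted p under 0.152 (exact permutation test). A larger share of some subclusters makes others smaller, so their differences are not independent. In 9 of 16 subclusters both queen libraries lay outside the range of the 4 worker libraries, with numbers 6, 7, 8 and 10 larger in queens and numbers 2, 3, 4, 5 and 16 smaller. Number 6 held 4.07% and 4.03% of forager members, 5.72% and 4.62% of nurse members, and 11.8% and 12.6% of queen members, a gain of 7.60 percentage points. Number 3, with FMRFamide, held 12.1% and 12.96% of forager members, 14.3% and 12.1% of nurse members, and 6.11% and 6.29% of queen members, a difference of -6.66 points. Number 8 was 7.29 points and number 7 was 5.33 points larger in queens, and number 5 was 5.86 points smaller. For these 5 subclusters and numbers 2 and 16 the exact permutation test gave p = 0.0667, the smallest it can give here, or 0.152 after adjustment over 16 subclusters. For numbers 4 and 10 the exact permutation test gave p = 0.133, or 0.237 after adjustment. Number 16 held only 1 cell in each queen library and 6 to 9 cells in each worker library, so its difference rests on very few cells. Number 1 overlapped between castes (means of 16.8% in queens and 18.6% in workers, exact permutation p = 0.600).

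The same contrast was seen without clusters. Cells with at least 3 UMIs of sim made up 14.6% and 11.98% of forager members, 21.4% and 22.3% of nurse members, and 34.8% and 34.9% of queen members. Cells with FoxD3 made up 61.7% and 62.3%, 48.5% and 42.9%, and 37.2% and 42.1% in the same order. The castes did not overlap for either gene. For FoxD3 the gap was narrow, with 42.9% in nurse replicate 2 and 42.1% in queen replicate 2, and the forager shares lay furthest from the queens. Queens differed from workers by 17.3 points for sim (exact permutation p = 0.0667) and by -14.2 points for FoxD3 (exact permutation p = 0.133).

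Depth differed between the libraries, so members with at least 3000 UMIs were also thinned to 3000 and counted when they kept at least 1 UMI. sim was then seen in 15.9% to 25.8% of worker members and in 31.1% and 34.0% of queen members, and the difference was 11.5 points (exact permutation p = 0.0667). In thinned cells with repo the share with sim was 5.08% to 7.73% per library. FoxD3 differed by -19.03 points (exact permutation p = 0.133). In thinned cells with repo the share with FoxD3 was 11.1% to 16.9% in worker libraries and 8.68% and 7.80% in queen libraries, so this background was also lower in queens, and its part in the difference was not tested. These shares of FoxD3 and sim were chosen for description after the data had been seen.

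**Figure D4:**
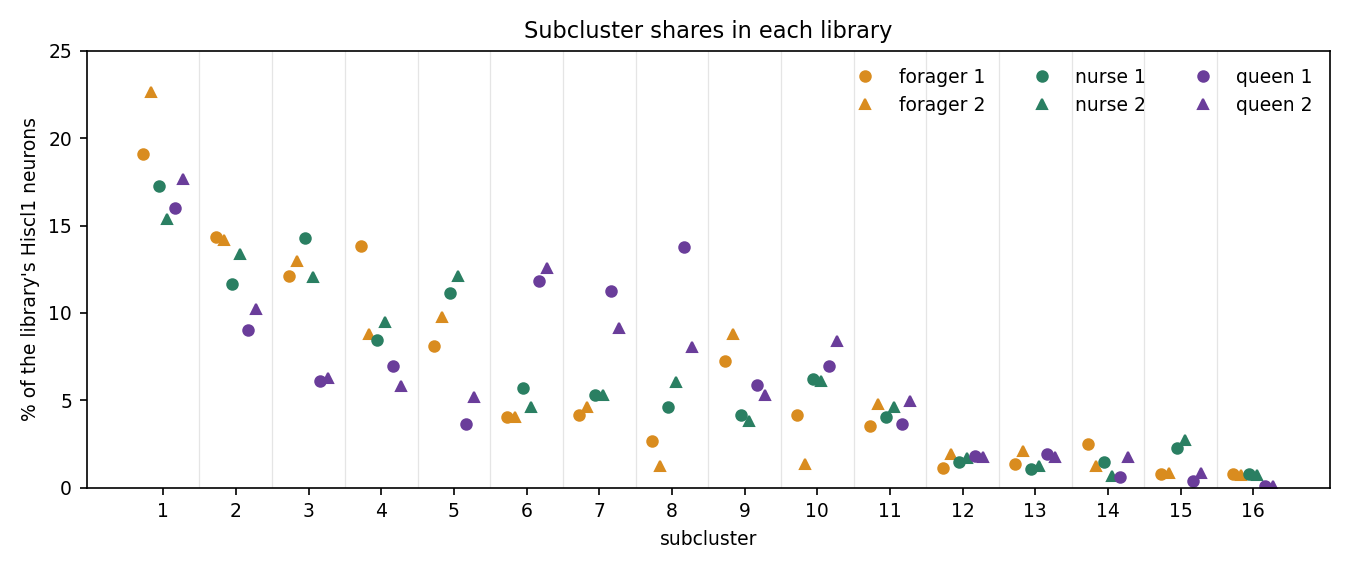
Points give the percentage of each library's Hiscl1 neurons in each of the 16 subclusters, circles for replicate 1 and triangles for replicate 2. Queen points lie above all worker points in subclusters 6, 7, 8 and 10 (11.8% and 12.6% against 4.03% to 5.72% in number 6) and below them in 2, 3, 4, 5 and 16. Each queen point in number 16 stands for 1 cell.

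In the summed Hiscl1 neurons, queens had less kainate receptor c, less 5-ht7 and less nAChRb1 than workers, and more prohormone-2. Other neurons shared part of these differences. The queen effect in the members differed from that in other neurons by -0.55 (log2) for kainate receptor c, whose fold was -1.75. For 5-ht7 the value was -0.62, with a fold of -1.46, and for prohormone-2 it was 0.51, with a fold of 1.18. For nAChRb1 no difference from other neurons was called. Of 9446 genes 1214 differed (12.9%), 684 higher (7.24%) and 530 lower (5.61%) in queens. Against nurses alone 742 genes differed (7.86%) and against foragers alone 1061 (11.2%), in comparisons that share the queen libraries. Leaving out single libraries gave 322 to 907 calls for queens against workers, the fewest without queen replicate 1.

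Kainate receptor c was at 406 and 329.5 CPM in forager members, 344 and 256 CPM in nurse members, and 99.03 and 98.03 CPM in queen members. The queen libraries lay close together and far below all workers (log2 fold -1.75 ± 0.14, edgeR adjusted p = 0.00013). The serotonin receptor gene 5-ht7 was at 33.4 to 47.8 CPM in workers and at 14.5 and 14.7 CPM in queens (log2 fold -1.46 ± 0.17). The muscarinic receptors gar-2 (-1.32) and DM1 (-0.70), the nicotinic subunit nAChRb1 (-0.96), the allatostatin C receptor (-1.28), Dop1 (-1.03), Dop3 (-0.89), Glurb (-0.74) and the uptake gene Eaat-1 (-0.85 ± 0.13) were lower in queens as well.

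Prohormone-2, a peptide precursor gene, was at 361 and 311 CPM in forager members, 162 and 148 CPM in nurse members, and 427 and 606 CPM in queen members (log2 fold 1.18 ± 0.13). Nurses were the lowest, and queens lay above both worker groups. The octopamine receptor gene Oa1 was at 72.4 to 121 CPM in workers and at 181 and 171 CPM in queens (log2 fold 0.86 ± 0.10). 5-HT1 (0.78), choline transporter a (0.69), GABA-B receptor subunit 2 (0.61) and prohormone-3 (0.58) were higher in queens too, the last 2 with library levels that overlapped between castes.

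Of 26 tested optic lobe factors GATAc (log2 fold 0.86) and sim (0.64) were higher in queens, and Awh (-1.62), cut (-1.48), ERG (-1.10), Lhx9 a (-1.05), CF1A (-1.03) and Lhx9 b (-0.81) were lower, with a list median of -0.12. Of 13 amine receptors 2 rose and 3 fell, of 9 glutamate and GABA-B receptors 1 rose and 2 fell, and of 11 acetylcholine receptors none rose and 3 fell. Of 24 neuropeptide genes 3 rose and FMRFamide fell (-1.38). The rises were prohormone-2, prohormone-3 and the antimicrobial peptide gene Apid1, which is also in the list of RNA of other sources. Apid1 gave 4 UMIs in worker members and 140 in queen members. No other ligand-gated chloride channel was called (log2 folds of -0.30 to 0.10).

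The largest rises by the naming rule included mitochondrial genes of complex I of the respiratory chain. ND4L was at 26.03 to 47.04 CPM in workers and at 234 and 123 CPM in queens (log2 fold 2.39 ± 0.24), and ND1 (1.46), ND2 (1.42) and ND3 (1.25) rose too. Dnmt1a, a DNA methyltransferase gene, was at 26.4 to 30.8 CPM in workers and at 81.3 and 72.0 CPM in queens (log2 fold 1.47 ± 0.10). The ribosomal protein gene Rpl39 (1.51), LOC100576392 (Myc-B, 1.64), LOC411557 (a terminal nucleotidyltransferase, 1.38 ± 0.11) and LOC724706 (trichohyalin, 1.28) were further rises.

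LOC408650, the inositol oxygenase gene, fell most. It was at 102 and 270.4 CPM in forager members, 36.5 and 74.3 CPM in nurse members, and 12.7 and 10.5 CPM in queen members (log2 fold -3.12 ± 0.46). LOC408579 (thrombospondin domain, -2.49), LOC408864 (waprin-Phi1, -2.27), LOC409187 (an MD-2-related protein, -2.05), LOC727173 (a lipase, -2.02), LOC408715 (lachesin, -1.91), LOC551028 (a cytochrome P450, -1.88), LOC410943 (Rap-2a, -1.74) and LOC409722 (-1.74 ± 0.13) followed. Some of these genes were as different in other neurons, where ND4L was at 26.4 to 44.9 CPM in workers and at 199 and 102 CPM in queens, and LOC408650 at 57.1 to 318 CPM and at 17.9 and 16.2 CPM.

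RNA of other sources moved with caste in these cells. IRP30, an immune-responsive protein gene, gave 9 UMIs in all worker members and 315 and 1305 in the queen members, and its level in queens was 36.1 and 161 CPM in the members and 56.1 and 228 CPM in other neurons. The antimicrobial peptide gene hymenoptaecin gave 12 UMIs in workers and 488 in queens, and the yolk protein gene Vg gave 16 and 271. Mrjp1, a royal jelly protein gene of the gland that makes brood food, gave 179 and 225 UMIs in nurse members, 5 and 3 in forager members and none in queen members. The glia list summed to 430.4 and 694 CPM in forager members, 465 and 515 CPM in nurse members, and 266 and 226 CPM in queen members. Of 9 tested glia genes 5 were lower in queens (median -1.14). The limit on repo was part of the rule, so its log2 fold (-0.38 ± 0.31) is given without a test. The part of these transcripts in the other caste differences was not tested.

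To compare castes at a like make-up, 531 cells per library were drawn with the same number from each subcluster. Then 793 genes differed between queens and workers, 498 higher and 295 lower (8.98%), against 996 genes, 571 higher and 425 lower (11.3%), with as many cells drawn at random. sim (log2 fold -0.10, edgeR adjusted p = 0.573), GATAc (0.02, adjusted p = 0.935) and FMRFamide (-0.24, adjusted p = 0.416) were no longer called, and sim changed sign. ERG (-0.32), CF1A (-0.42), Oa1 (0.26), GABA-B receptor subunit 2 (0.26) and choline transporter a (0.21) were not called either. The same held for the receptors Dop1 (-0.63, edgeR adjusted p = 0.0149), Dop3 (-0.42), gar-2 (-0.70) and 5-HT1 (0.32), for Awh (-0.79), Lhx9 a (-0.83), Lhx9 b (-0.50) and FoxP (-0.0042), and for prohormone-3, whose fold (0.49) fell below the limit. Over all named and listed caste values, 27 kept direction and lost their call at the equal make-up, and 8 did with cells drawn at random. The part of the smaller cell number in each lost call was not tested.

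Other caste genes held at the like make-up. Kainate receptor c (log2 fold -1.64, edgeR adjusted p = 4.6e-05) and prohormone-2 (1.51, adjusted p = 6.6e-05) remained far from 0, and 5-ht7 (-1.03), cut (-0.92), nAChRb1 (-0.87), Eaat-1 (-0.87), the allatostatin C receptor (-0.81), Glurb (-0.70) and DM1 (-0.53) still passed. These are the 9 that passed both thresholds among 26 called list genes, leaving aside glial genes and RNA of other sources. Of the genes picked for size, ND4L (2.35) and LOC408650 (-3.01) kept nearly the same fold, while LOC410943, a leading gene of subcluster 3, was no longer called (-0.70, edgeR adjusted p = 0.037). This comparison was added after the data had been seen.

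**Figure D5:**
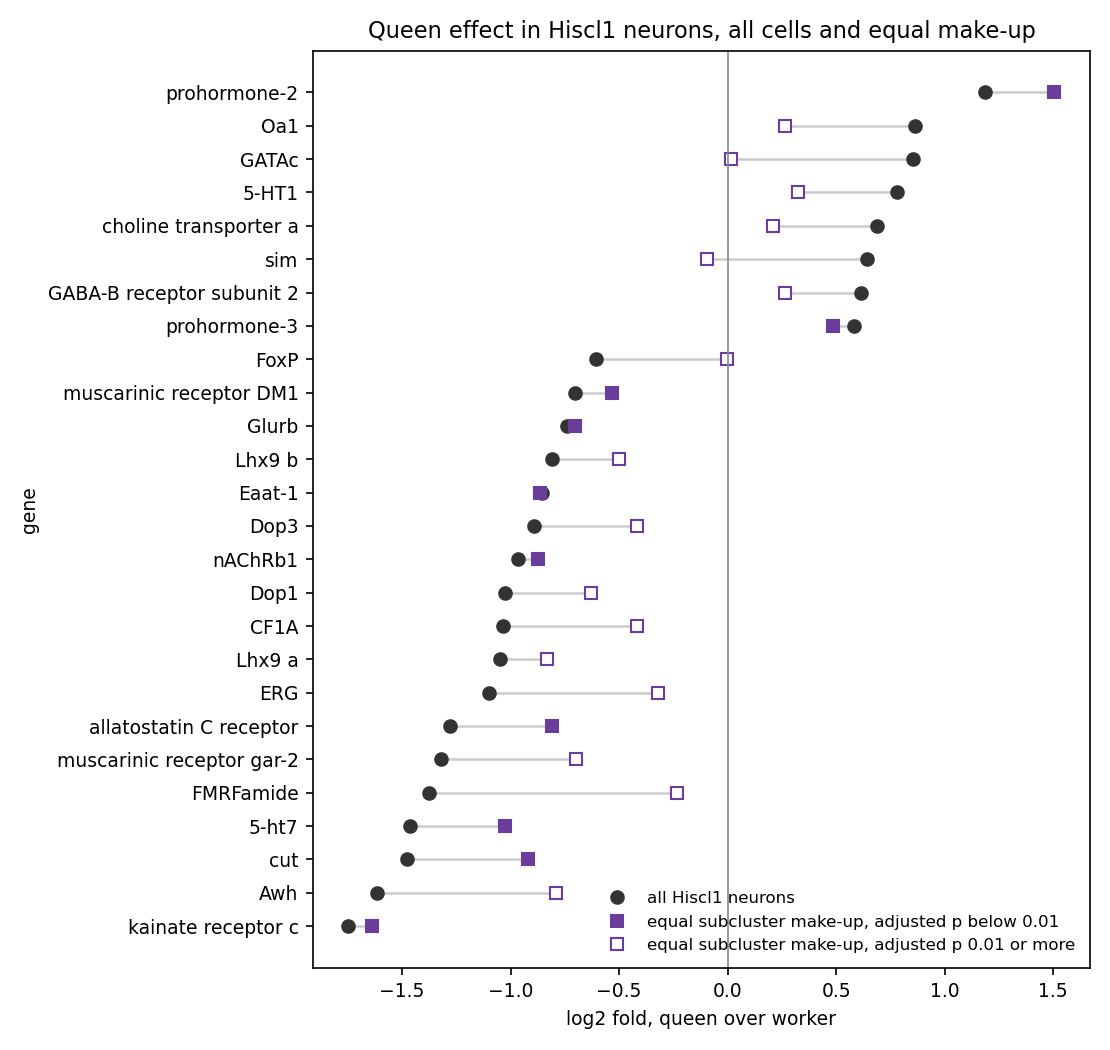
For 26 list genes with a caste difference in Hiscl1 neurons, circles give the log2 fold in all members and squares the log2 fold with the same number of cells of each subcluster per library, filled where the adjusted p is below 0.01. GATAc, sim and FMRFamide move close to 0 (0.02, -0.10 and -0.24), and kainate receptor c (-1.64) and prohormone-2 (1.51) stay far from it.

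Whether the queen difference in Hiscl1 neurons was unlike that in other neurons was tested with an interaction term in 1 edgeR fit. It was for 304 of 11014 genes (2.76%), with 145 (1.32%) moved upward and 159 (1.44%) downward in queens' Hiscl1 neurons relative to other neurons. The largest log2 differences among the list genes of neurons were sim (1.39 ± 0.12), FMRFamide (-1.28 ± 0.23), GATAc (1.18 ± 0.20), gar-2 (-1.14 ± 0.18) and Oa1 (1.13 ± 0.08). None of the other ligand-gated chloride channels was called.

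Foragers and nurses differed in few genes. Of 9446 genes 13 were called (0.138%), 1 higher (0.0106%) and 12 lower (0.127%) in foragers, with 1905 at an unadjusted p under 0.05. DESeq2 called 118. Of the 13, Mrjp1, Mrjp2 and Mrjp3 were lower in foragers.

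The serotonin receptor gene 5-HT2alpha, first among the leading genes of subcluster 10, was at 14.9 and 9.003 CPM in forager members and at 42.6 and 39.0 CPM in nurse members (log2 fold -1.74 ± 0.21, edgeR adjusted p = 0.0098). LOC413568, a G-protein coupled receptor gene that also led that subcluster, was at 27.9 and 20.3 CPM against 61.2 and 62.3 CPM (log2 fold -1.34 ± 0.16, adjusted p = 0.009). Subcluster 10 itself held 4.15% and 1.34% of the members in foragers and 6.21% and 6.11% in nurses. At the like make-up neither gene passed (-1.08, adjusted p = 0.046, and -0.66, adjusted p = 0.10).

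No gene had a forager difference that was unlike that in other neurons by edgeR (0% of 11014 genes; 833 at an unadjusted p under 0.05), and DESeq2 called 12. FoxD3 was higher in the members of both forager libraries than in those of both nurse libraries (log2 fold 0.99 ± 0.19), and that difference did not pass (edgeR adjusted p = 0.039).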

How the data were processed

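Single-cell transcriptomes (10x Genomics) and bulk RNA of whole brains were measured in 6 libraries each, 2 per group. Per the labels and methods, the authors made the deposited UMI counts with Cell Ranger 3.1.0 on Amel_HAv3.1. The bulk values are expected counts that the authors deposited after Trimmomatic 0.39, STAR and RSEM, and they were rounded here to whole numbers. No column was left unmapped (0).

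The single-cell libraries held 21250 to 26157 barcodes and 133937595 to 159610288 UMIs, with a median of 4718 to 5971 UMIs per kept cell. Shares of cells carry exact 95% intervals that cover counting error only. UMIs were summed per library and class and tested with the quasi-likelihood test of edgeR 4.0.16 in R 4.3.3 (TMM, filterByExpr, Benjamini-Hochberg adjustment over all genes tested). A call needed an adjusted p under 0.01 and a log2 fold over 0.5 for single cells or over 1 for bulk RNA, as in the methods of the study. Levels are CPM after TMM scaling, and summed marker levels are CPM of raw totals. DESeq2 1.42.0 was an alternative. Shares were compared with exact permutation tests over libraries (scipy 1.17.1), two-sided. Simulated data were run through the fits of members against other neurons and Lim3 neurons, and of queens against workers in members and bulk RNA. The remaining fits were not tried in this way.

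Doublets were marked by a nearest-neighbour caller run on each library and were kept in the main results. Subclusters came from Leiden clustering (leidenalg 0.10.2, resolution 0.5) of 20 principal components of 2000 variable genes. Leading genes of a subcluster were ranked by fold over the other members at 50 CPM or more, and the text gives some of them.

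Named genes were the 15 largest rises and 10 largest falls between classes past the thresholds, with the same direction in 6 libraries and a mean of at least 50 CPM in the higher class. Between castes they were the 10 largest rises and falls whose groups did not overlap. A gene name other than uncharacterized was required. The supplementary tables of the study gave a description for 919 of 12292 features, some of them only as uncharacterized. A feature without a description passed if it had a gene symbol of its own, and list genes passed by their list name. IRP30 met the caste rule through its list name. Genes of 17 lists (164 features) were added, and values for a few are given. The members and the lists were chosen with earlier results of these data known. Positions come from the RefSeq table of Amel_HAv3.1, which matched 12261 features.

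Alternatives were another normalization, no filter, DESeq2, thinned cells, an upper limit on UMIs, doublets left out, other limits of the rule, a replicate block and single libraries left out. Equal make-up, the same number of cells at random, subclusters 9, 15 and 16 left out, 2 other clusterings of the members and a crossed block were added after the data had been seen.

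Replicate numbers were checked for pairing. Deviations of same-numbered libraries from their group means correlated at 0.0291 for foragers and nurses, -0.10 for foragers and queens and 0.0834 for nurses and queens over 5914 genes, so the numbers were not taken to pair the libraries.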

Additional observations from a re-analysis of the deposited data

Results flagged for a closer look

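The difference between queens and workers was tested for being unlike that in other neurons, and 304 genes passed in Hiscl1 neurons (edgeR interaction term). For the list genes and named genes among them, the log2 difference between the queen effect in Hiscl1 neurons and that in other neurons is given.

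It was above 0 for the factors sim (1.39), GATAc (1.18), bsh (0.99) and svp (0.77). Of the receptors and transmitter genes it was 1.13 for Oa1, 0.94 for GABA-B receptor subunit 2, 0.62 for 5-HT1, 0.64 for choline transporter a, 0.53 for VAChT, 0.52 for kainate receptor b and 0.51 for prohormone-2. It was 1.05 for LOC411557, 0.92 for LOC724706, 0.64 for LOC100576392 and 0.62 for Dnmt1a.

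It was below 0 for the factors CF1A (-0.98), ERG (-0.85), FoxP (-0.82), cut (-0.77) and prospero (-0.60). The receptors with a lower value were gar-2 (-1.14), Dop3 (-0.83), 5-ht7 (-0.62), TyrR (-0.58) and kainate receptor c (-0.55), and FMRFamide stood at -1.28 and Eaat-1 at -0.51. LOC408579 (-2.17) and LOC408715 (-1.54), leading genes of subcluster 5, were far below 0. Of the marker genes of other cells, the hemocyte gene PPO stood at -2.01 and the collagen gene vkg at -1.87. The part of subcluster make-up in these values was not tested in the same fit.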

How the results depend on the processing

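The groups are pools with 2 libraries each, depth differs between libraries, and free RNA of other cells enters every class, which limits how small a difference can be read. Of 5853 comparisons of 355 named or listed values with an alternative, 5467 kept direction and call, 376 kept direction and lost the call, and 10 changed sign. Leaving out PLCe cells from the other neurons turned LOC409970 to 0.080, LOC726262 to 0.72, LOC100578296 to 0.10, LOC107965041 to 0.16, mblk-1 to 0.34, Glurb to -0.0064 and bsh to -0.083 (log2). PLCe itself went to 1.89, a sign that this filter fixed in advance. The upper limit on UMIs turned bsh to -0.00073, and equal make-up turned sim between castes to -0.10.

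Against other neurons 1906 genes became 1022 without the library block, against Lim3 neurons 556 became 304 and against bsh and hth neurons 1043 became 661. Leaving out single libraries gave 1711 to 1830, 484 to 563 and 842 to 1098 calls. For queens against workers equal make-up gave 793 calls, and single libraries left out gave 322 (without queen replicate 1) to 907. For queens against nurses these values were 476 and 130 (without nurse replicate 1) to 506. For queens against foragers they were 618 and 128 (without forager replicate 2) to 878. The 13 calls between foragers and nurses became 6 with the upper limit, 30 with thinned cells, 118 with DESeq2, 38 with no filter, 8 with equal make-up and 5 with cells drawn at random, and 0 (without forager replicate 2) to 21 (without queen replicate 1) with single libraries left out. The queen interaction gave 229 to 413 calls with single libraries left out. The forager interaction gave 0 calls, and 1 with the upper limit, 30 with thinned cells, 12 with DESeq2, 1 with no filter and 1 to 17 with single libraries left out.

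With single libraries left out, the share of members differed by -1.09 to -0.21 points between queens and workers and by -1.74 to 0.14 between foragers and nurses. Hiscl1 in bulk RNA differed by -1.01 to -0.35 (log2) and by -0.49 to 0.17, the last without nurse replicate 2. The number of subclusters whose castes did not overlap was 9 to 11 with single libraries left out, 8 of 13 at resolution 0.25, 10 of 19 at resolution 1, 9 without doublets and 11 with caste genes kept in the clustering. The share of subcluster 9 changed sign with caste genes kept (0.18), and those of subclusters 9 (-1.14 to 0.53), 11 (-0.58 to 0.74) and 14 (-0.86 to 0.31) spanned 0 with single libraries left out.

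With the replicate number as a block, queens differed from workers in 1180 genes, from nurses in 659 and from foragers in 979, foragers from nurses in 3, and the queen and forager interactions called 269 and 0. Hiscl1 in bulk RNA stood at -0.63 and -0.21. With the forager numbers crossed in the block, 1030 genes differed between queens and foragers, against 1061 without a block.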
